A study of Mus musculus with 11 samples.

Results

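Bile acids that reach the distal gut are taken up, moved through the epithelial cell, returned to the blood and sensed by a small set of proteins, and 8 mouse genes for these proteins were examined in the colon of germ-free and humanized mice. The genes were Slc10a2, Fabp6, Slc51a, Slc51b, Nr1h4, Nr0b2, Fgf15 and Gpbar1. They were chosen by name, for their roles, among the 43346 genes of the count table, with earlier results of these data known. All 8 had a row in the table.

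Slc10a2 encodes the apical sodium-dependent bile acid transporter (ASBT), which takes conjugated bile acids up from the lumen. Fabp6 encodes the ileal bile acid-binding protein of the cytosol, and Slc51a and Slc51b encode the α and β subunits of the basolateral exporter OSTα–OSTβ, which works only as the pair. Nr1h4 encodes FXR, the nuclear receptor for bile acids. In the ileum FXR is known to induce Fabp6, Slc51a, Slc51b, the corepressor gene Nr0b2 (SHP) and the hormone gene Fgf15, and the FGF15 hormone lowers bile acid synthesis in the liver. Gpbar1 encodes TGR5, a cell surface receptor for bile acids. The best known site of this uptake and feedback is the terminal ileum, while the colon mainly receives the bile acids that escape it, altered by bacteria where bacteria are present.

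RNA was measured by paired-end sequencing of polyA RNA from colon tissue of male Swiss Webster mice aged 8–10 weeks. The germ-free group (n = 5) was never colonized. The humanized group (n = 6) was raised germ-free and received 300 μL of a stool suspension by oral gavage at 4–5 weeks of age, followed by 4–5 weeks of adaptation. The stool of all 6 humanized mice came from 1 healthy donor, so the group stands for 1 human microbiota, and mice of both groups were housed singly on autoclaved diet.

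Total counts ranged from 49097005 to 64148538 in germ-free mice and from 39125290 to 54219854 in humanized mice. Levels are given as RPKM (reads scaled to gene length and to TMM-normalized library size), and a log2 fold change (LFC) is humanized over germ-free. A gene was called upregulated or downregulated at a false discovery rate (FDR) below 0.01 in edgeR's exact test over the 19863 genes that passed a filter on low counts. The tissue was not sorted, so fewer cells of a type and less RNA per cell cannot be told apart. Summed smooth muscle markers were 1086 to 2822 CPM (counts scaled to library size) in germ-free mice and 254 to 1086 CPM in humanized mice, and fibroblast markers were 1338 to 1800 against 123 to 987 CPM. All 10 smooth muscle markers and 5 of 6 fibroblast markers were downregulated. Of 7 posterior Hox genes, which mark position along the gut, 4 passed the filter and 3 were downregulated, with sums of 14.5 to 26.0 CPM in germ-free and 2.72 to 10.3 CPM in humanized mice. The part of these shifts in the results that follow was not tested. Summed markers of the whole epithelium overlapped between the groups, at 9272 to 12381 against 10603 to 14801 CPM, and those of the colon epithelium were higher in every humanized mouse, at 9631 to 12919 against 20313 to 26432 CPM, with 2 of 7 upregulated, the abundant Car1 and Ceacam1.

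The sequences before 2 of the gene starts are shown because they hold letters of receptor binding sites. FXR is known to bind an inverted repeat of AGGTCA with any 1 base between the copies, and single AGGTCA half-sites are common. Promoters from RefSeq (GRCm38.p6) were found for 7 of the 8 genes. With up to 2 mismatches, on either strand, this repeat was present in 1.14% of 32851 promoters (250 bases before to 50 after the start). Among the 7 promoters only that of Fabp6 held it, at 2 places that start 222 and 142 bases before the gene start. The 250 bases before the start of Fabp6 lie at chr11:43601563-43601812 on the minus strand, with both matches in capitals. The same length before the start of Slc51a, the exporter subunit gene, lies at chr16:32487880-32488129 on the minus strand and holds 1 half-site, AGGTCA read on the other strand, in capitals.
Fabp6: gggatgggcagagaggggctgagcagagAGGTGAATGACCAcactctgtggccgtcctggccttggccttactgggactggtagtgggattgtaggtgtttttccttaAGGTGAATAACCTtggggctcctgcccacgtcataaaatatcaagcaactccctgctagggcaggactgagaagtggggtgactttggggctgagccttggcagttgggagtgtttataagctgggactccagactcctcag
Slc51a: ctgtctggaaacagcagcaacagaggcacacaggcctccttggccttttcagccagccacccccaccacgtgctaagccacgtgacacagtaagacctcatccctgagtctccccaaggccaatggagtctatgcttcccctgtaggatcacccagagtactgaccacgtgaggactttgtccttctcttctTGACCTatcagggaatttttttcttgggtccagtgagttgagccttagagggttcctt

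The half-site AGGTCA was present on either strand in 16.3% of all promoters and in 3 of the 7, those of Slc51a, Slc51b and Nr1h4. It is part of the longer repeat when that repeat has no mismatch. A longer half-site bound by LRH-1 and related receptors, TCAAGGTCA, was present in 0.423% of all promoters and in none of the 7. The window of Nr1h4, at chr10:89506659-89506908 on the minus strand, lies inside the gene (chr10:89454234-89533585) and not before its outermost start. All these matches describe letters in a short window and are not mapped binding sites.

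Of the 8 genes, 6 passed the low-count filter, 2 were downregulated in humanized mice (Slc10a2 and Gpbar1) and 0 were upregulated. Over all genes tested, 10.1% were downregulated and 9.2% were upregulated, so the count of 2 in 6 rests on few genes. The median LFC was 0.08 for the 6 genes and 0.01 for all genes tested. By the quasi-likelihood test of edgeR, 0 of the 6 were called at the same FDR (6.53% of all genes were downregulated by that test), while Slc10a2 had an FDR of 0.0104 and Gpbar1 an FDR of 0.0294. The 5 genes of uptake, binding, export and FXR itself were well expressed in this colon tissue, whereas Nr0b2, Fgf15 and Gpbar1 were near the limit of detection. By mean RPKM, Slc10a2 stood at percentile 98.6 of the genes tested, Slc51a at 98.3, Slc51b at 96.0, Nr1h4 at 94.9 and Fabp6 at 87.9.

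**Figure D1:**
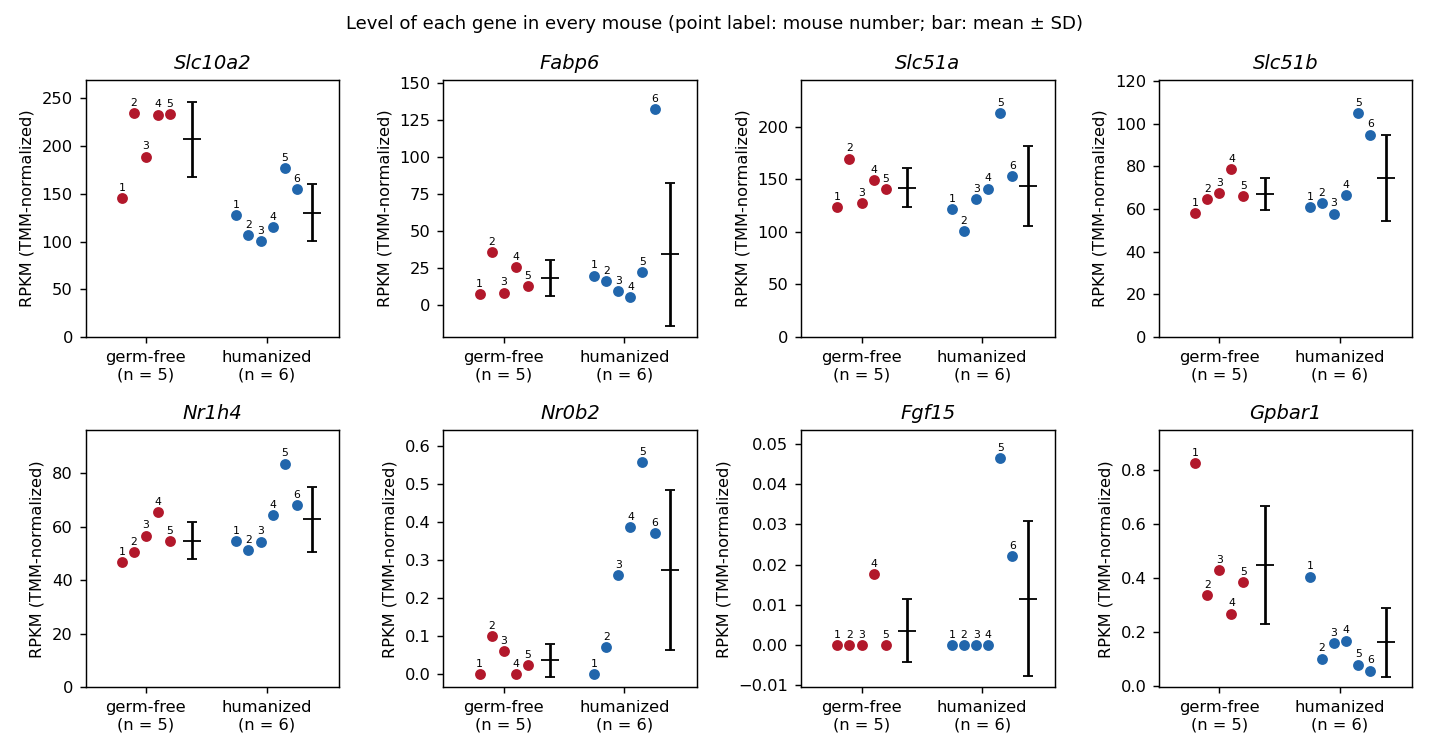
RPKM (vertical axis, linear) of each of the 8 genes in every germ-free (red, n = 5) and humanized (blue, n = 6) mouse, with mouse numbers at the points and bars for the mean ± SD, which reach below 0 where the SD exceeds the mean. Slc10a2 and Gpbar1 were lower in humanized mice with some overlap, and Fabp6 had 1 humanized mouse at 132 RPKM.

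Slc10a2, the uptake transporter gene (ENSMUSG00000023073, chr8:5085623-5105232, minus strand, mm10), was downregulated in humanized mice. Its levels were 145, 234, 189, 233 and 234 RPKM in germ-free mice 1 to 5 and 127, 107, 100, 115, 177 and 155 RPKM in humanized mice 1 to 6. The groups overlapped through germ-free mouse 1, the lowest of its group, and humanized mice 5 and 6. The means were 207 ± 39.6 RPKM (SD, n = 5) and 130 ± 29.9 RPKM (SD, n = 6), a level 37.1% lower. The LFC was −0.67 with an SE of 0.16, a 95% interval from −1.03 to −0.31 and an FDR of 7.08e-04 by edgeR's exact test, and an exact permutation test of the RPKM values gave a two-sided p of 0.0108. Without any 1 of the 11 mice the LFC stayed between −0.78 and −0.60 with an FDR of at most 0.00543.

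Slc10a2 was also lower in humanized mice relative to epithelial marker genes. Per 10000 counts of 11 epithelial marker genes, Slc10a2 had 255 to 355 counts in germ-free mice and 145 to 197 counts in humanized mice, so that the groups did not overlap. The level was 47.4% lower on this scale, with a log2 difference of −0.93 and a two-sided exact permutation p of 0.00216, the smallest that 5 against 6 mice can give (0.0173 adjusted over the 8 genes). With 1 mouse left out the log2 difference stayed between −0.99 and −0.87. Relative to Epcam alone the log2 difference was −0.71, close to the LFC. Of the 11 markers in the denominator, 3 were themselves upregulated (median LFC of the 11 markers 0.27). With counts scaled to these markers, the median LFC of all genes tested was −0.24, with 2877 genes downregulated and 496 upregulated. The share of all genes without overlap on this scale was not determined.

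Fabp6, the cytosolic bile acid-binding protein gene (ENSMUSG00000020405, chr11:43596049-43601540, minus strand), varied more between mice than between groups. It was at 7.18, 35.3, 8.00, 25.2 and 12.6 RPKM in germ-free mice 1 to 5 and at 19.6, 15.7, 9.34, 4.88, 21.8 and 132 RPKM in humanized mice 1 to 6. Humanized mouse 6 was far above the other 5 of its group, whose levels lay within the range of the germ-free mice apart from the lowest. The coefficient of variation was 69.2% in germ-free and 143% in humanized mice, against medians over all genes of 10.4% and 16.5%. The LFC was 0.94 (SE 0.76, 95% interval −0.70 to 2.60) with an FDR of 0.378 by edgeR's exact test, and without humanized mouse 6 it was −0.31. A change of either sign was thus not detectable.

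Fabp6 is typical of the small intestine, and its level was set beside 16 small intestinal enterocyte markers. Their summed level was 1057 to 1516 CPM in germ-free mice and 891 to 1953 CPM in humanized mice, and humanized mouse 6 had the highest sum. The same mouse also had the highest sums of the epithelium markers, at 14801 CPM, and of the colon epithelium markers, at 26432 CPM, and among humanized mice it was the highest for all 10 smooth muscle markers, at 1086 CPM in sum against 501 CPM in the next. The next highest small intestinal sum of the 11 mice was 1516 CPM, and the next highest epithelium sum 14626 CPM. Anpep, a brush border peptidase gene on that list, was at 79.8 RPKM in humanized mouse 6 against a median of 3.72 RPKM in its group. Of the 13 list genes that passed the filter, 5 were higher in humanized mouse 6 than in any other mouse and 10 were higher in it than in any other humanized mouse. Lct and Slc2a2, which did not pass the filter, were near 0 in every mouse, at no more than 0.0718 and 0.0554 RPKM. Whether small intestinal RNA had a part in the Fabp6 level of this mouse was not tested.

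The exporter subunit genes did not differ detectably between the groups. Slc51a (ENSMUSG00000035699, chr16:32475522-32487879, minus strand) was at 124, 170, 127, 149 and 141 RPKM in germ-free mice and at 121, 101, 131, 141, 213 and 153 RPKM in humanized mice. Both the lowest and the highest level belonged to humanized mice, and the means were 142 ± 18.5 (SD, n = 5) and 143 ± 38.3 RPKM (SD, n = 6). The LFC was 0.01 with a 95% interval from −0.33 to 0.36 and an FDR of 0.970 by edgeR's exact test.

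Slc51b (ENSMUSG00000053862, chr9:65412753-65422773, minus strand) was at 58.0, 64.8, 67.6, 78.6 and 66.3 RPKM in germ-free mice and at 60.9, 62.7, 57.9, 66.5, 105 and 94.9 RPKM in humanized mice. Humanized mice 5 and 6 were above all germ-free mice, humanized mouse 3 was just below them and the other 3 lay among them. The means were 67.0 ± 7.43 (SD, n = 5) and 74.6 ± 20.0 RPKM (SD, n = 6), with an LFC of 0.16, a 95% interval from −0.19 to 0.50 and an FDR of 0.542 by edgeR's exact test. The ratio of Slc51b to Slc51a within a mouse was 0.382 to 0.531 in germ-free and 0.441 to 0.621 in humanized mice and did not differ detectably (log2 difference 0.14, exact permutation p = 0.286, two-sided). In the GENCODE M21 annotation, exons of Slc51a share 567 bases, or 17.7% of their length, with Pcyt1a. Those of Slc51b share 91 bases, or 12.8%, with Rasl12, each on the opposite strand. These exons are longer than the deposited lengths (3198 against 1600 bases for Slc51a and 709 against 488 for Slc51b). How many shared bases were counted is therefore not known. Because the library kit does not mark strand, reads from any shared bases that were counted cannot be told apart by strand.

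Nr1h4, the FXR gene (ENSMUSG00000047638, chr10:89454234-89533585, minus strand), was at 46.7, 50.6, 56.7, 65.4 and 54.7 RPKM in germ-free mice and at 54.6, 51.3, 54.4, 64.2, 83.5 and 68.0 RPKM in humanized mice. Again humanized mice 5 and 6 were the highest, and the other 4 overlapped with the germ-free mice. The means were 54.8 ± 7.04 (SD, n = 5) and 62.7 ± 12.1 RPKM (SD, n = 6), with an LFC of 0.19, a 95% interval from −0.08 to 0.47 and an FDR of 0.303 by edgeR's exact test. The intervals of Slc51a, Slc51b and Nr1h4 each leave room for a moderate change, so equal levels are not shown.

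**Figure D2:**
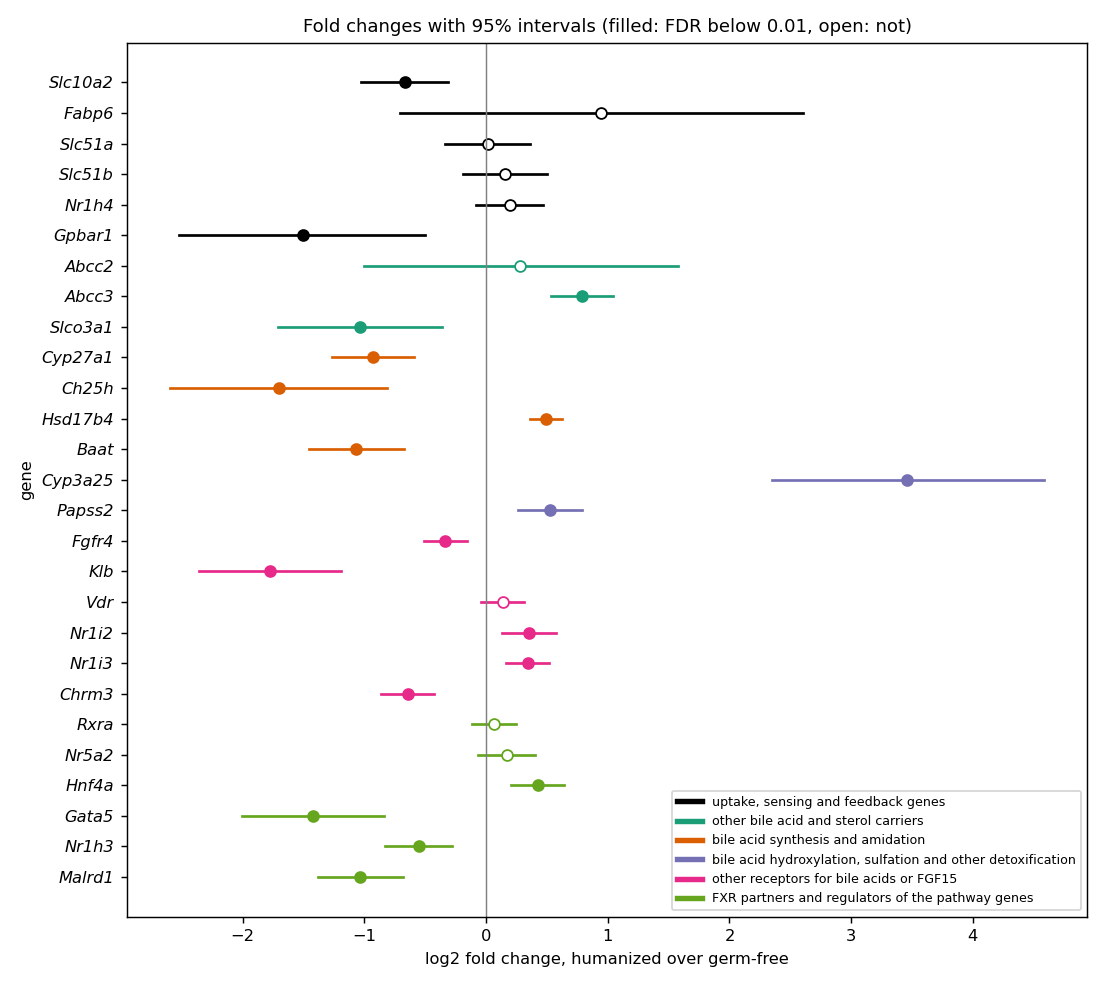
LFC of humanized over germ-free mice (horizontal axis, log2) for the 6 genes that passed the filter (black) and for related bile acid genes (colors by list), with lines for 95% intervals from the quasi-likelihood fit and filled points for an FDR below 0.01 in the exact test. Slc10a2 lies at −0.67 and Gpbar1 at −1.51, while the intervals of Fabp6, Slc51a, Slc51b and Nr1h4 span 0.

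The 2 classical targets of FXR in feedback were hardly detected. Nr0b2, the SHP gene (ENSMUSG00000037583, chr4:133553376-133556536, plus strand), had 0, 6, 4, 0 and 2 reads in germ-free mice 1 to 5 and 0, 3, 14, 17, 30 and 21 reads in humanized mice 1 to 6. The 4 highest humanized mice had more reads than any germ-free mouse, and the other 2 did not. Mean levels were 0.0374 and 0.274 RPKM, and Nr0b2 did not pass the low-count filter. On the log2(CPM + 0.5) scale, which understates changes of low genes, the difference was 0.53 (two-sided exact permutation p = 0.0433), and this p was above 0.05 without germ-free mouse 1, 3, 4 or 5 or without humanized mouse 3, 4, 5 or 6 (0.0714 to 0.0952). Without the filter, edgeR's exact test gave an FDR of 0.0171, above the threshold, and the p relative to epithelial markers was 0.0693 by the exact permutation test (0.185 adjusted over the 8 genes).

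Fgf15, the gene of the hormone FGF15 (ENSMUSG00000031073, chr7:144896532-144900953, plus strand), had 2 reads in germ-free mouse 4, 4 reads in humanized mouse 5 and 2 in humanized mouse 6. It had 0 reads in the other 8 mice, where a count of 0 allows up to 3 reads, for counting error only. No difference was detectable at this depth (exact permutation p = 0.576, two-sided), and no fold change is given. In GENCODE M21, exons of Fgf15 share 761 bases with the antisense gene Gm26793, and they exceed the deposited length (3058 against 1809 bases).

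Gpbar1, the TGR5 gene (ENSMUSG00000064272, chr1:74278550-74279624, plus strand, 1 exon), was low in every mouse and lower in humanized mice. It had 56, 19, 27, 18 and 29 reads in germ-free mice 1 to 5 and 16, 4, 8, 7, 4 and 3 reads in humanized mice 1 to 6. In RPKM the germ-free mice ranged from 0.268 to 0.826 and the humanized mice from 0.0557 to 0.405, with overlap through humanized mouse 1 only. The means were 0.449 ± 0.219 (SD, n = 5) and 0.161 ± 0.128 RPKM (SD, n = 6). Gpbar1 was downregulated with an LFC of −1.51 (SE 0.47, 95% interval −2.53 to −0.50) and an FDR of 0.00905 by edgeR's exact test, just inside the threshold. The call was lost by DESeq2 (adjusted p = 0.0193) and when any 1 of 9 of the 11 mice was left out, with an FDR from 0.0117 to 0.0530. The exceptions were germ-free mouse 4 and humanized mouse 1, and the LFC was smallest, at −1.17, without germ-free mouse 1.

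TGR5 is known from macrophages, enteroendocrine cells, smooth muscle and other cells as well as epithelium. Beside the Gpbar1 levels, summed macrophage markers were 91.2 to 125 CPM in germ-free and 27.0 to 107 CPM in humanized mice, with 2 of 7 downregulated. The fibroblast sums given above were lower in every humanized mouse. So were the smooth muscle sums, but only barely in humanized mouse 6 (1085.7 CPM, against 1086.2 CPM in germ-free mouse 1). Of 8 enteroendocrine markers, 3 were upregulated and 3 downregulated, with sums of 497 to 717 against 458 to 733 CPM. The part of these cell types in the Gpbar1 difference was not tested.

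Because ASBT brings bile acids into the cell and OSTα–OSTβ passes them on, the level of Slc10a2 was set against its neighbors in the same mouse. These ratios were chosen after the levels had been seen. The ratio of Slc10a2 to Slc51a was 1.17, 1.38, 1.49, 1.56 and 1.66 in germ-free mice 1 to 5 and 1.05, 1.06, 0.762, 0.817, 0.831 and 1.01 in humanized mice 1 to 6. All germ-free mice were above all humanized mice, with a log2 difference of −0.66 and an exact permutation p of 0.00216 (two-sided, 0.00361 adjusted over 5 ratios). The ratio to Slc51b was 2.51 to 3.62 against 1.64 to 2.09 (log2 difference −0.80), and the ratio to Nr1h4 was 3.11 to 4.63 against 1.80 to 2.33 (log2 difference −0.86), each with no overlap and the same exact p. The ratio of Slc51a to Nr1h4 overlapped (log2 difference −0.20, exact permutation p = 0.0844) with an adjusted p of 0.106, and its exact permutation p before adjustment was 0.0429 without germ-free mouse 3 and 0.0476 without germ-free mouse 4. Since the lower Slc10a2 and the other levels were known when they were chosen, these ratios describe the same difference within each mouse and are no independent support for it. Among all genes tested, 9.73% of single genes, not ratios, were lower in every humanized than in every germ-free mouse in CPM.

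The size of each ratio depends on the gene lengths deposited with the counts, while its difference between groups does not. For Slc10a2, Slc51a, Slc51b and Fgf15 the deposited length was shorter than the exonic bases of GENCODE M21, for example 1629 against 4152 bases for Slc10a2, so a ratio above or below 1 is not firm.

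**Figure D3:**
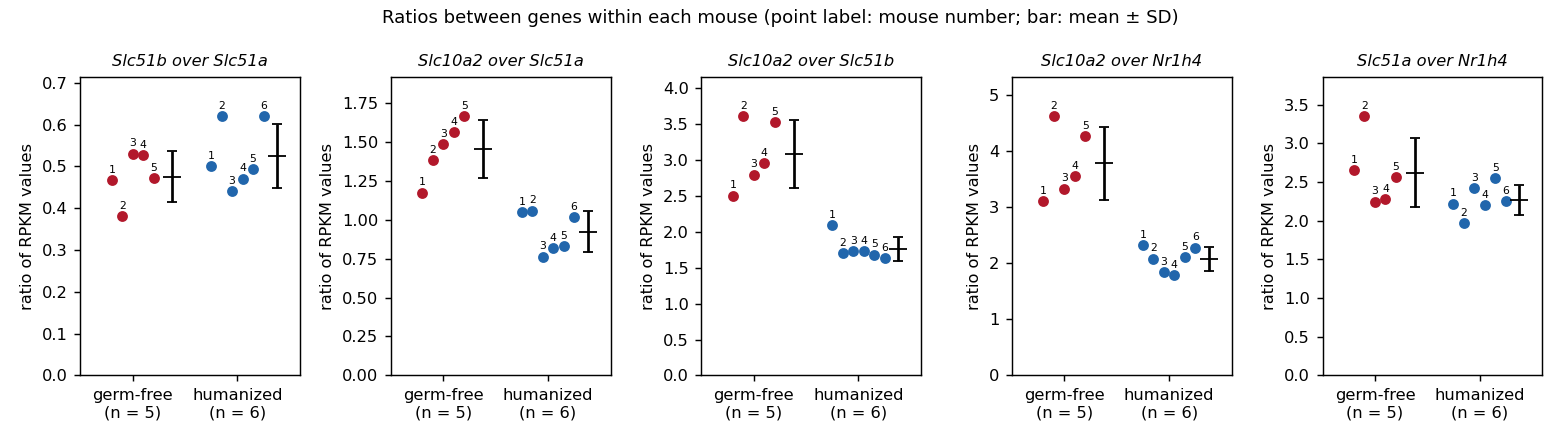
Ratios of RPKM values between pairs of genes within each mouse (vertical axis, linear from 0), with germ-free mice in red, humanized mice in blue, mouse numbers at the points and bars for the mean ± SD. The ratios of Slc10a2 to Slc51a, Slc51b and Nr1h4 do not overlap between groups, and the ratios of Slc51b to Slc51a and of Slc51a to Nr1h4 do.

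Within the groups, Slc10a2, Slc51a, Slc51b and Nr1h4 varied together from mouse to mouse. The comparison used log2 CPM minus the group mean for the 5 well expressed genes, over n = 11 mice and 10 pairs. The closest pair was Slc51b and Nr1h4, with Pearson's r = 0.91 (permutation p = 1.7e-04, adjusted 0.0017), Spearman's rho = 0.89 (permutation p = 3.4e-04) and r = 0.88 without the 2 mice farthest from the median. For Slc10a2 and Slc51b r was 0.83 (permutation p = 0.00271) and rho 0.77 (permutation p = 0.0116), with r = 0.78 without 2 mice. In all, 7 of 10 pairs had an adjusted p below 0.05, and the other 3 were those of Fabp6 with Slc51a, Slc51b and Nr1h4 (adjusted p 0.126 to 0.437, permutation test). How often other gene pairs vary as closely was not tested, and genes outside the set reached higher r with each of the 5, as listed after the plot of pairs. The relation of Slc51a and Nr1h4 (r = 0.79, permutation p = 0.0112, rho = 0.75, permutation p = 0.0185) fell to r = 0.45 without 2 mice and so rests on them. Relative to epithelial markers only 1 pair remained below 0.05 by Pearson's r, Slc51b and Nr1h4 (r = 0.82, permutation p = 0.00497, adjusted 0.0497), with r = 0.66 without 2 mice. By Spearman's rho no pair did, and the lowest adjusted permutation p was that of the same pair (rho = 0.81, adjusted 0.0631). These pairs share their libraries, and the part of the tissue's epithelial share in the correlations was not tested.

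**Figure D4:**
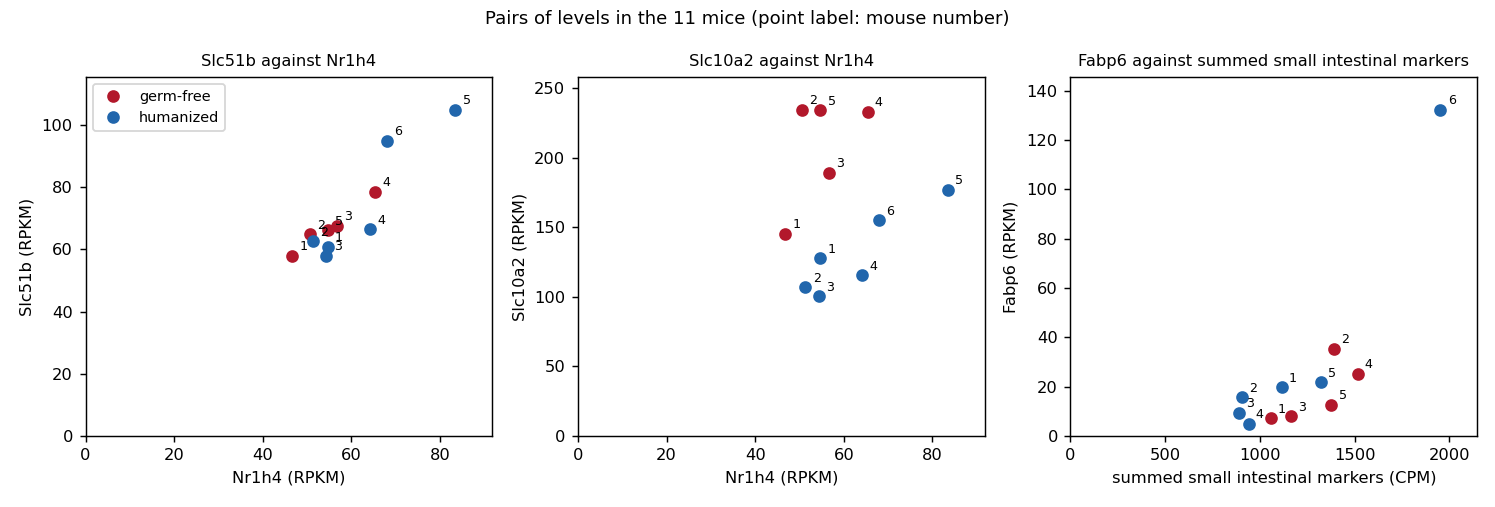
Slc51b against Nr1h4 (left), Slc10a2 against Nr1h4 (middle) and Fabp6 against the summed CPM of small intestinal markers (right), in RPKM on linear axes, for germ-free (red) and humanized (blue) mice with mouse numbers. At like levels of Nr1h4 the germ-free mice had more Slc10a2, and humanized mouse 6 had both the highest Fabp6 and the highest marker sum, as it had for the epithelium and colon epithelium markers.

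The genes most like each of these 5 from mouse to mouse, by the same centered values over 11 mice and among 16069 genes, are given as a description. They were Abhd6 (r = 0.98), Atp6v0a2 (0.97) and Elovl1 (0.97) for Slc10a2, and Atp2b1 (0.94), Dennd5b (0.92) and Ccl25 (0.92) for Fabp6. Those most like Slc51a were Fosb (0.94), Bcas2 (0.94) and Fam189a2 (0.92). For Slc51b they were Rasl12 (r = 0.98), which shares GENCODE M21 exonic bases with it, Ank3 (0.96) and Gm5682 (0.96). For Nr1h4 they were Rhob (0.97), Cipc (0.96) and Zdhhc23 (0.94). Likeness within groups did not mean a like difference between them, since Abhd6 was upregulated (LFC 0.80, FDR 1.88e-08 by edgeR's exact test) while Slc10a2 was downregulated.

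Further lists of bile acid genes were then examined. Over all genes tested, 9.2% were upregulated, 10.1% were downregulated and 18.4% did not overlap between the groups in CPM, in either direction. These shares stand beside the counts of each list below, and no list was tested as a set. Of 12 other bile acid and sterol carriers, 10 passed the filter, 1 was upregulated and 1 downregulated, with a median LFC of 0.26. Abcc3, an organic anion exporter of the basolateral membrane known to carry bile acid conjugates, was at 36.0 to 40.6 RPKM in germ-free mice and 55.3 to 90.0 RPKM in humanized mice. The groups did not overlap, and Abcc3 rose with an LFC of 0.79 (SE 0.12) and an FDR of 1.36e-08 by edgeR's exact test, which is the opposite direction to Slc10a2. Slco3a1, an organic anion transporter gene, was downregulated from 1.19 ± 0.158 (SD, n = 5) to 0.578 ± 0.260 RPKM (SD, n = 6; LFC −1.04, FDR 0.00745), a call that was lost without any 1 of germ-free mice 1 to 5 and humanized mice 1, 2 and 4 (FDR up to 0.0317), and by the quasi-likelihood test (FDR 0.0256). Abcc2, an apical exporter gene, was 1.22 times the germ-free level in humanized mice, with a 95% interval from 0.499 to 2.99 and an FDR of 0.786 by edgeR's exact test. Its LFC was 0.28 with all mice and −0.58 without humanized mouse 6 (FDR 0.336 by the same test).

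Of 15 genes of bile acid synthesis and amidation, most of which serve the liver, 9 passed the filter, 4 were downregulated and 1 was upregulated, with a median LFC of −0.23. Cyp27a1, the sterol 27-hydroxylase of the acidic pathway, had 15.7 to 27.4 RPKM in germ-free and 8.46 to 14.4 RPKM in humanized mice, with no overlap (LFC −0.93, FDR 5.72e-07). Ch25h, the cholesterol 25-hydroxylase, fell from 2.01 to 0.617 RPKM (LFC −1.70, FDR 5.57e-04), and Baat, which joins bile acids to taurine or glycine, fell from 1.64 to 0.786 RPKM (LFC −1.07, FDR 1.1e-05). The gene that rose was Hsd17b4, a peroxisomal enzyme of side chain shortening, from 23.7 to 33.3 RPKM (LFC 0.49, FDR 5.32e-09), a call that was lost when counts were scaled to epithelial markers. Cyp7a1, the rate-limiting enzyme of bile acid synthesis in the liver, had 0 reads in all 11 mice, which allows up to 3 reads in each for counting error only.

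Of 9 genes of hydroxylation, sulfation and other detoxification, 8 were in the table and 7 passed the filter, of which 2 were upregulated and 0 downregulated. Cyp3a25, a steroid-hydroxylating cytochrome P450, had 0.110 to 0.431 RPKM in germ-free and 1.65 to 8.54 RPKM in humanized mice (LFC 3.46, SE 0.51, FDR 4.66e-09). The humanized median was 2.19 RPKM, and without humanized mouse 6 the LFC was 2.88. Papss2, which makes the sulfate donor for sulfation, was at 166 ± 13.4 (SD, n = 5) and 238 ± 43.4 RPKM (SD, n = 6; LFC 0.53, FDR 2.78e-04). The Papss2 call was lost after scaling to total counts (FDR 0.0126) or to epithelial markers (FDR 0.0748), and the Cyp3a25 call was not.

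All 7 genes of the other receptors for bile acids or FGF15 passed the filter, 3 were downregulated and 2 upregulated. Both parts of the FGF15 receptor were downregulated, Fgfr4 less firmly. Klb, the coreceptor β-Klotho, was at 1.14 to 1.90 RPKM in germ-free and 0.237 to 0.729 RPKM in humanized mice (LFC −1.77, FDR 4.88e-08), and Fgfr4, the receptor kinase, at 8.14 to 9.81 against 5.88 to 7.71 RPKM (LFC −0.33, FDR 0.00414), neither with overlap. The Fgfr4 call was lost without germ-free mouse 2, 4 or 5 or humanized mouse 1, 2 or 6 (FDR 0.0115 to 0.0264 by edgeR's exact test), while Klb and Chrm3 kept theirs with any 1 mouse left out. Chrm3, a muscarinic receptor on which bile acids can act, also fell (LFC −0.64, FDR 7.73e-05). Nr1i2 (PXR; LFC 0.36, FDR 0.00779) and Nr1i3 (CAR; LFC 0.34, FDR 0.00505), nuclear receptors of xenobiotic and bile acid detoxification, were upregulated, but 0 of these 2 calls were left after scaling to total counts, to the upper quartile or to epithelial markers, and with 1 mouse left out Nr1i2 kept its call only without humanized mouse 2 or 3 and Nr1i3 lost it without germ-free mouse 1, 3 or 4 or humanized mouse 1, 2 or 6 (highest FDR 0.0333 and 0.0271). Vdr, the vitamin D receptor that also binds lithocholic acid, was at 74.8 ± 7.42 (SD, n = 5) and 82.3 ± 6.57 RPKM (SD, n = 6; LFC 0.14, FDR 0.270).

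Of 22 partners of FXR and regulators of these genes, 20 passed the filter, 4 were downregulated and 1 was upregulated, with a median LFC of 0.00147. Rxra, which encodes the obligate partner of FXR, was at 34.7 ± 1.28 (SD, n = 5) and 36.3 ± 4.56 RPKM (SD, n = 6; LFC 0.06, 95% interval −0.12 to 0.24, FDR 0.671). Nr5a2, the LRH-1 gene, had an LFC of 0.17 with a 95% interval from −0.07 to 0.41 and an FDR of 0.301. Hnf4a, a nuclear receptor of epithelial identity, was upregulated from 150 to 202 RPKM (LFC 0.43, FDR 6.08e-04), a call that was lost after scaling to total counts or epithelial markers. Malrd1, known as a regulator of FGF15 output, had 11.3 to 15.7 RPKM in germ-free and 4.90 to 9.87 RPKM in humanized mice (LFC −1.03, FDR 2.26e-08). Gata5 (LFC −1.42, FDR 2.11e-05), a transcription factor gene, and Nr1h3 (LFC −0.55, FDR 9.54e-04), the LXRα gene, also fell, and Gata4, a repressor of Slc10a2 in the proximal small intestine, did not pass the filter. The lists hold genes of several cell types, and the part of the lower smooth muscle and fibroblast sums in these changes was not tested.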

How the data were processed

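Colon polyA RNA libraries were prepared with the TruSeq RNA kit v2, which does not mark strand, and sequenced as 101 bp paired-end reads. The authors aligned the reads to mm10 with TopHat2 2.1.0 and Bowtie2 2.2.3 and deposited whole-number counts per gene from featureCounts (Subread 1.4.6-p5), with no normalization, for 43346 genes. How reads in overlapping genes were assigned is not given in the sources used here. Groups and mouse numbers were taken from the sample labels, which name no batch.

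Counts were analyzed in R 4.3.3 with edgeR 4.0.16, following the test of the study: the low-count filter filterByExpr as preset (at least 10 counts in enough mice and 15 in all), TMM normalization, the classic exact test of 5 germ-free against 6 humanized mice, Benjamini-Hochberg adjustment over 19863 genes and an FDR threshold of 0.01. A quasi-likelihood model in edgeR supplied SE values and 95% intervals. RPKM used the deposited gene lengths. Single values were compared by two-sided exact permutation tests over the 462 splits of the mice, and correlations by 100000 permutations. Ratios to epithelium were made per 10000 counts of 11 marker genes, with 0.5 added to the count of each gene. The mean chi-square per gene between mice of a group was 21.2 to 104 in germ-free and 36.3 to 123 in humanized mice, so that no library was a repeat of another. Each library came from 1 mouse.

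The 8 genes, the pathway lists, the marker lists and the tests were chosen with earlier results of these data known. Named pathway genes were those with an FDR below 0.01 and a mean of at least 1 RPKM in a group, up to 4 per list by absolute LFC, plus Rxra, Nr5a2, Hnf4a, Gata4, Fgfr4, Klb, Vdr, Abcc3, Abcc2, Cyp7a1 and Cyp27a1 where they passed the filter. Gata4 and Cyp7a1 did not pass it and were named after their values were seen, as were Lct, Slc2a2, Anpep, Car1 and Ceacam1. The 3 genes most like each member were taken among genes with a mean of at least 1 CPM. The 4 further ratios were added after the levels were seen. The tests were checked on simulated data, where the exact test found more of the changed genes than the quasi-likelihood test and also made more false calls. Alternatives were edgeR's quasi-likelihood test, DESeq2 1.42.0, RLE, upper-quartile, total-count and epithelium-marker scaling, 2 other filters, an FDR of 0.05, each mouse left out and the mouse number as a block. Promoter sequences came from RefSeq and exon overlaps from GENCODE M21, both of GRCm38, the build mm10.

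Marker lists not described in the report gave these results. Of 7 B and plasma cell markers 5 were upregulated, and of 6 hepatocyte markers 2 passed the filter and 0 changed.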

Additional observations from a re-analysis of the deposited data

Results flagged for a closer look

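Of 42 checks for a mouse far from the others of its group, 8 were positive, and chance alone gives about 1 in 20 for independent checks. These checks were not independent, since Fabp6, Fgf15 and Gpbar1 were each flagged in the same mouse on 2 scales. Humanized mouse 6 had Fabp6 at 132.3 RPKM, with 21.8 RPKM in the next mouse, and 42.8 Fabp6 counts per 10000 epithelial marker counts, with 7.15 in the next. Gpbar1 stood apart in germ-free mouse 1 at 0.826 RPKM (0.429 in the next) and at 0.966 counts per 10000 epithelial marker counts (0.425 in the next), and in humanized mouse 1 at 0.405 RPKM (0.167 in the next). Fgf15 in germ-free mouse 4, at 0.0177 RPKM and 0.0374 counts per 10000 epithelial marker counts, rests on 2 reads. The ratio of Slc10a2 to Slc51b was 2.09 in humanized mouse 1 and 1.74 in the next.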

How the results depend on the processing

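The downregulation of Slc10a2 kept its direction under all alternatives run and its call under all but 2, the quasi-likelihood test (LFC −0.67, FDR 0.0104) and that test with the mouse number as a replicate block (LFC −0.73, FDR 0.0161). Same-numbered mice did not deviate together (r −0.13 to 0.09 over 5 numbers, 0 above 0.1), so the numbers were not taken as pairs, and 1 of 5 germ-free mice correlated best with its own number. Total-count scaling moved the median LFC of all genes by −0.18 (773 genes higher, 3609 lower) and epithelium-marker scaling gave a median of −0.24 (496 higher, 2877 lower), against 1827 and 1999. The quasi-likelihood test called 1401 higher and 1298 lower, and 506 higher and 506 lower with the block.

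Gpbar1 missed the threshold with DESeq2 (LFC −1.51), with no filter (−1.51, FDR 0.0171), with the quasi-likelihood test (−1.51, FDR 0.0294) and with the replicate block (−1.38, FDR 0.0310), and ranged from −2.01 to −1.17 with 1 mouse left out. It gave no value where 10 counts were required in every mouse. The downregulated members then numbered 1 with DESeq2, no filter or 10 counts in every mouse, 0 with the quasi-likelihood test or the block, and 1 to 2 with 1 mouse left out. Members upregulated numbered 0 to 1, the 1 being Nr0b2, which passed the filter without germ-free mouse 2. For Nr0b2 the difference was 2.85 as an LFC with no filter and 0.43 to 0.66 with 1 mouse left out.

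Relative to epithelial markers, Slc10a2 ranged from −0.99 to −0.87 with 1 mouse left out, with an adjusted p of 0.0317 to 0.0635 by the exact permutation test. The value of 0.0635, without humanized mouse 2, 3, 4, 5 or 6, comes from the smallest p that 5 against 5 mice allow (0.00794), so it says nothing of dependence on those mice. On that scale Gpbar1 was −1.83 (adjusted p = 0.0260, exact permutation test), −1.61 with Epcam alone (adjusted p = 0.0693, exact permutation test) and −2.13 to −1.53 with 1 mouse left out, and Nr0b2 was 1.99 to 3.23. The ratio of Slc51a to Nr1h4 was −0.25 to −0.11 with 1 mouse left out. By Pearson's r, correlated pairs numbered 1 as ratios to epithelium.

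Upregulated genes of the detoxification list numbered 1 with total-count or epithelium-marker scaling or the block. Those of synthesis numbered 0 with epithelium-marker scaling, 2 at an FDR of 0.05 and 1 to 2 with 1 mouse left out, and its downregulated genes 1 with the block. Those of FXR partners numbered 0 with total-count or epithelium-marker scaling or the block and 2 at an FDR of 0.05, and its downregulated genes 7 with total-count scaling. Carriers upregulated numbered 2 with DESeq2 or at an FDR of 0.05 and 1 to 2 with 1 mouse left out, and carriers downregulated 0 with the quasi-likelihood test or the block and 0 to 1 with 1 mouse left out. Receptors upregulated numbered 0 with epithelium-marker, total-count or upper-quartile scaling, no filter or the block, 1 with the quasi-likelihood test or 10 counts in every mouse, and 0 to 2 with 1 mouse left out, and receptors downregulated 1 with the block. The cause of these shifts was not tested. The reads behind Nr0b2, Fgf15 and Gpbar1 limit what can be said of them.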
